A study of Mus musculus with 8 samples.

Results

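The genes described here mark mural cells, the pericytes and smooth muscle cells that wrap blood vessels. They are the 9 genes Kcnj8, Abcc9, Pdgfrb, Rgs5, Cspg4, Notch3, Mcam, Angpt1 and Ednra, out of 19057 genes that the array annotation names. The set was chosen by a measured value, the difference of Kcnj8 between the genotypes, so this difference is described without a test. The other 8 were added for their known association with mural cells. The annotation gave 15 probes to 8 of the 9 genes and none to Ednra, a receptor for endothelin on contractile vessel cells, which has no value here. Of the 15 probes 11 passed the filter on detection, and these covered 8 genes.

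Expression was measured on Illumina MouseWG-6 v2 BeadChips in EGFP-positive gut cells sorted from mouse embryos of a mixed C57BL/6J and 129 background at E12.5, with 4 samples of each genotype. Wildtype cells carried 1 targeted Bapx1 allele with IRES-EGFP behind an intact coding region. Bapx1 null cells carried 2 targeted alleles in which EGFP followed the start codon and disrupted the gene. The reporter sat in the Bapx1 locus in either genotype, so the sort could collect any gut cell that held EGFP made from this locus, and the genotypes also differed in the number of EGFP alleles. The methods describe the samples as biological replicates and at least 2 independent ES cell clones per allele, without stating which clone or how many embryos a sample came from.

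Kcnj8 encodes Kir6.1, the pore subunit of an ATP-sensitive potassium (KATP) channel, and Abcc9 encodes SUR2, its regulatory sulfonylurea receptor subunit. In vessels of several organs the channel of these subunits is found in pericytes and smooth muscle, where its opening hyperpolarizes the cell and relaxes the vessel. Mural cells are recruited to endothelium through PDGF-B and its receptor PDGFRB, depend on Notch3 signalling for their maturation, and signal back to the endothelium through angiopoietin 1. In the embryonic gut many of these genes are also active outside vessels, in mesenchyme or visceral smooth muscle, so that none of them alone defines a mural cell.

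Kcnj8 and Abcc9 are neighbours on mouse chromosome 6, with 0 annotated genes between them in the RefSeq table of assembly GRCm38.p6. RefSeq promoter windows of 300 bases, reaching from 250 bases before a gene's start to 50 bases from it on, were given for 7 of the 9 genes, all but Pdgfrb and Angpt1. They were searched on both strands for 3 motifs, namely the Bapx1 motif (TAAGTG or TGAGTG), the motif of the Notch effector RBPJ (TGGGAA) and the CArG box of serum response factor. All matches found, 3 in number, are shown. Each is given on the strand of its gene, with the motif in capitals.
Kcnj8 (RBPJ motif at the first base of the gene, chr6:142571597-142571626, minus strand): aatccgggctacTGGGAAccgagctggctc
Abcc9 (RBPJ motif, 221 bases before the start, chr6:142702478-142702507, minus strand): ggtggtcctgaaTGGGAAtggccggagtga
Notch3 (Bapx1 motif, 146 bases before the start, chr17:32167019-32167048, minus strand): ttgtggcagaccTGAGTGtaccgaggtctg
The letters of the RBPJ motif were in 2 of the 7 windows and in 25.6% of all 32851 promoter windows, those of the Bapx1 motif in 1 of the 7 and in 23.9% of all. The CArG box was in 0 of the 7 and in 1.63% of all. These are matches of letters, and binding was not measured in gut cells here.

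The targeted gene read higher on the arrays labelled Bapx1 null. The first Bapx1 (Nkx3-2) probe lay between 4.44 and 4.50 on the normalised log2 scale on the arrays labelled wildtype, not above background on any of them, and between 6.46 and 7.56 on those labelled Bapx1 null, at least 2.79-fold higher. The second probe was likewise not above background on the former, at 4.37 to 4.54, and lay at 6.27 to 7.38 on the latter. The arrays labelled wildtype thus gave background signal in cells sorted for an active locus with an intact coding region. Signal in the null does not show an intact gene. The place of the probes relative to the inserted cassette and the deleted bases was not analysed. For the vertebral column the paper describes higher Bapx1 in null embryos by in situ hybridization and proposes auto-regulation. Its figure caption also counts Bapx1 among the vertebral column genes shown, with an arrow for rostral loss of expression. For the spleen the same caption reports that Bapx1 expression was lost in the null embryo. Whether the labels are right was not tested. Wildtype and Bapx1 null arrays are therefore arrays labelled so, and every direction below would turn if the labels were exchanged. Wildtype arrays detected 38.2% to 40.0% of probes, whereas Bapx1 null replicates 1 to 4 detected 36.3%, 31.0%, 36.4% and 38.5%. Bapx1 null replicates 2 and 3 correlated least with the other arrays across genes (median r 0.921 and 0.948, against 0.970 to 0.980 for the other 6), and results that rest on them are given with and without them.

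The 2 channel genes were the members with the highest differences. On the normalised log2 scale, Kcnj8 was 7.26, 7.50, 7.55 and 7.67 on the arrays labelled wildtype and 8.48, 9.34, 9.12 and 9.01 on the arrays labelled Bapx1 null. The lowest Bapx1 null array lay above the highest wildtype array. The means were 7.49 ± 0.17 and 8.99 ± 0.37 (SD, n = 4), a difference of 1.49, which is 2.81-fold higher on arrays labelled Bapx1 null and above 99.9% of genes tested. The deposited intensities, before any background correction or normalization, showed the same separation. They were 268.6, 252.7, 234.7 and 291.9 on arrays labelled wildtype and 360.9, 317.6, 567.4 and 662.3 on arrays labelled Bapx1 null, where the darkest array of the series, Bapx1 null replicate 2, was the lowest of its genotype and still above every wildtype value. Without Bapx1 null replicates 2 and 3 the difference was 1.25. In bulk samples, a change in the number of cells of a type and a change in RNA per cell cannot be told apart.

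Abcc9 had 4 probes, of which 2 were kept and 2 were not above background on any array. The probe with the higher mean signal represented the gene. It read 8.08, 8.38, 7.99 and 8.37 on arrays labelled wildtype and 8.87, 8.55, 8.84 and 9.49 on arrays labelled Bapx1 null, again without overlap. The difference was 0.73 ± 0.20 (SE), 1.66-fold, with a 95% interval of 0.27 to 1.19 and an adjusted p of 0.104 in limma over all 9784 genes, so Abcc9 did not pass the threshold of 0.05. The second kept probe, assigned to another RefSeq transcript of the gene, gave the same order. It was 7.41, 7.83, 7.88 and 8.03 on arrays labelled wildtype and 8.51, 8.82, 8.52 and 9.13 on arrays labelled Bapx1 null. Its difference was 0.96 ± 0.19 (SE), 1.94-fold, with an adjusted p of 0.0745 over 17440 probes in limma, of which 0.47% passed and 9.96% had all Bapx1 null arrays above wildtype.

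In contrast to Kcnj8, Abcc9 overlapped between the genotypes before normalization. The deposited intensities of its first probe were 441.8, 425.1, 304.9 and 457.4 on arrays labelled wildtype and 458.6, 188.8, 468.7 and 897.6 on arrays labelled Bapx1 null, where replicate 2 fell below all wildtype arrays. Those of the second probe were 294.1, 305.8, 287.5 and 365.4 against 367.0, 225.5, 381.5 and 715.8, and replicate 2 was again the lowest value of the 8. Without Bapx1 null replicates 2 and 3 the Abcc9 difference was 0.97, with an adjusted p of 0.0688 in limma. With no normalization between arrays it was 0.11 ± 0.43 (SE; adjusted p 0.863) and with the processed values 0.25 (adjusted p 0.688). The subunits of the related KATP channel of islet cells and neurons, Kcnj11 (Kir6.2) and Abcc8 (SUR1), were not detected on any array.

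**Figure D1:**
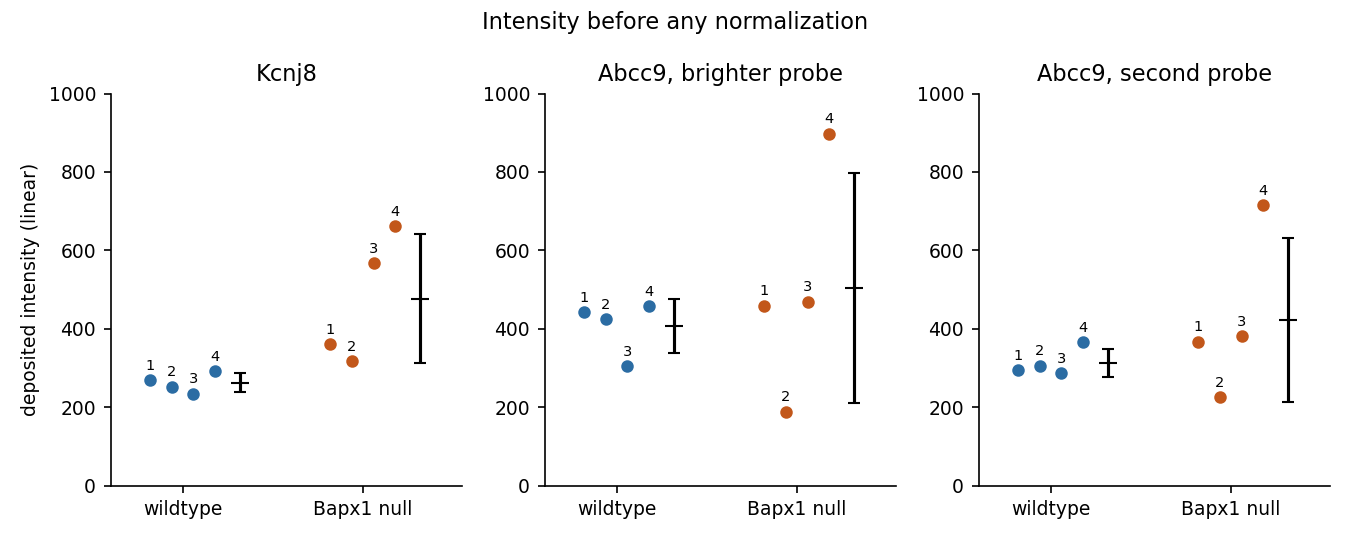
Deposited linear intensity of the Kcnj8 probe and the 2 kept Abcc9 probes on each array (numbers are replicates, bars the mean ± SD). For Kcnj8 the 4 Bapx1 null arrays, at 317.6 to 662.3, lie above the 4 wildtype arrays, at 234.7 to 291.9, whereas both Abcc9 probes overlap through Bapx1 null replicate 2.

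Pdgfrb and Notch3 encode receptors. Pdgfrb, the receptor through which PDGF-B recruits pericytes, was 8.85, 8.78, 8.90 and 8.77 on arrays labelled wildtype and 8.74, 8.99, 9.70 and 9.51 on arrays labelled Bapx1 null. The wildtype arrays were tightly grouped, Bapx1 null replicate 1 lay below all of them, and replicates 3 and 4 were clearly higher. The difference of 0.41 ± 0.21 (SE) had an interval of -0.05 to 0.87 and an adjusted p of 0.220 in limma. Notch3, the Notch receptor that vascular smooth muscle needs to mature, was 9.66, 9.47, 9.68 and 9.56 on arrays labelled wildtype and 9.86, 10.12, 10.02 and 9.58 on arrays labelled Bapx1 null. Replicate 4 of Bapx1 null fell within the wildtype range. The difference was 0.30 ± 0.15 (SE), with an interval of -0.03 to 0.63 and an adjusted p of 0.212 in limma. Without Bapx1 null replicates 2 and 3 the differences were 0.30 for Pdgfrb (adjusted p 0.447 in limma) and 0.13 for Notch3 (adjusted p 0.622). Without normalization between arrays both differences were negative, at -0.17 for Pdgfrb and -0.20 for Notch3, while the median of all genes was at -0.45.

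Cspg4, which encodes the NG2 proteoglycan used to label pericytes, had the narrowest spread of the members within Bapx1 null. It was 5.46, 5.51, 5.62 and 5.60 on arrays labelled wildtype and 6.12, 6.00, 6.11 and 6.20 on arrays labelled Bapx1 null, with no overlap. The difference was 0.56 ± 0.12 (SE), 1.48-fold, with an interval of 0.30 to 0.83 and an adjusted p of 0.0617 in limma. These values were close to background. The probe was detected on the 4 wildtype arrays and on 3 of the 4 Bapx1 null arrays, replicate 2 being the exception. The deposited intensities overlapped, at 99.6, 89.9, 84.8 and 92.3 on arrays labelled wildtype and 98.9, 65.8, 93.5 and 125.1 on arrays labelled Bapx1 null. Cspg4 passed the threshold in 4 of 21 alternatives. These were without the detection filter (adjusted p 0.0372), with array weights (0.0276) and without Bapx1 null replicate 2 (0.0483) or replicate 4 (0.0416). In the same settings 49, 202, 83 and 1245 genes passed, against 77 in the main fit. With scaling by median and MAD (median absolute deviation) the Cspg4 difference lay 0.52 below the median of all genes (-0.52).

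Rgs5 and Mcam were highest on the 2 arrays that correlated least with the others. Rgs5, a regulator of G protein signalling and a marker of brain pericytes, was 6.87, 6.78, 6.65 and 5.94 on arrays labelled wildtype and 6.73, 7.45, 7.98 and 6.38 on arrays labelled Bapx1 null. Only Bapx1 null replicates 2 and 3 exceeded the wildtype range. The difference of 0.58 ± 0.34 (SE; adjusted p 0.278 in limma) was -0.0034 without these arrays. Mcam (CD146), an adhesion molecule of both mural and endothelial cells, was 7.61, 7.72, 7.73 and 7.84 on arrays labelled wildtype and 7.84, 8.57, 8.12 and 7.61 on arrays labelled Bapx1 null, where again replicates 2 and 3 were the highest. Its difference of 0.31 ± 0.20 (SE; adjusted p 0.306 in limma) was 0.0034 without them. The 2 further Mcam probes differed by 0.28 and 0.09, and their genotypes overlapped.

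Angpt1, the ligand of the endothelial receptor TIE2, was the only measured member with a lower mean on arrays labelled Bapx1 null. It was 7.29, 7.30, 6.55 and 7.03 on arrays labelled wildtype and 7.11, 5.31, 6.16 and 6.98 on arrays labelled Bapx1 null. Replicates 2 and 3 were the lowest values of the 8, and replicate 2 was not above background. The difference of -0.65 ± 0.37 (SE) had an interval of -1.48 to 0.17 and an adjusted p of 0.259 in limma, and without replicates 2 and 3 the genotypes differed by 4.98e-05. The 2 other Angpt1 probes were not above background on any array.

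**Figure D2:**
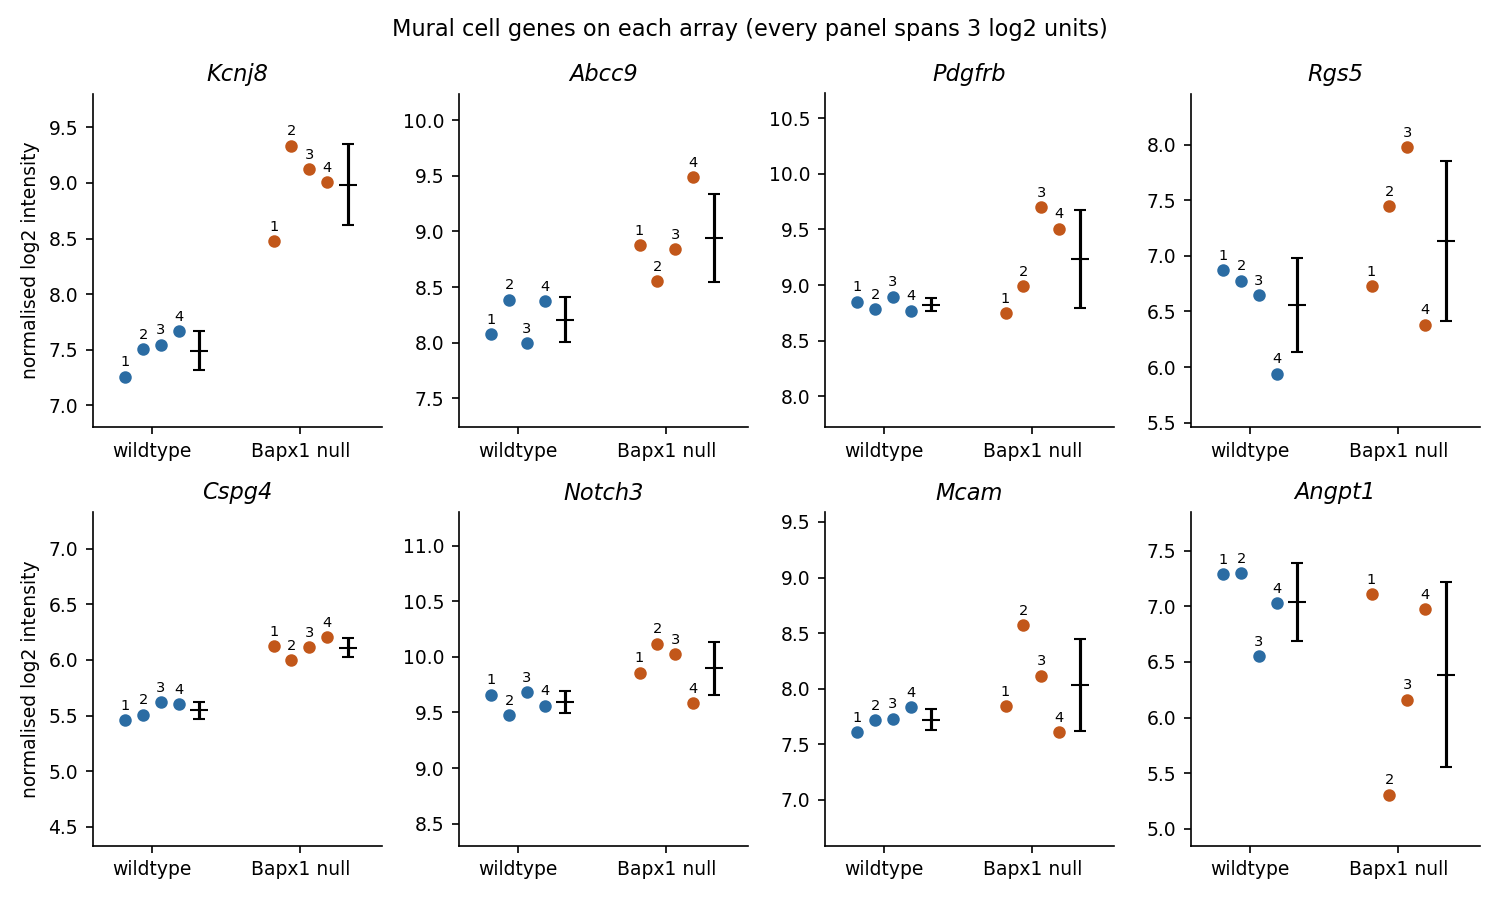
Normalised log2 intensity of the 8 measured genes on each array by genotype (numbers are replicates, bars the mean ± SD, every panel 3 log2 units high). The genotypes do not overlap for Kcnj8, Abcc9 and Cspg4 and overlap for the other 5, with Bapx1 null replicates 2 and 3 highest for Rgs5 and Mcam and lowest for Angpt1.

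Leaving out Kcnj8, 6 of the 7 measured members were higher on arrays labelled Bapx1 null, against 57.2% of all genes tested. In limma and in the plain 2-sample test 0 of the 7 passed the threshold of 0.05; in limma 0.787% of all genes did so (0.531% higher and 0.256% lower). At an unadjusted p under 0.05 there were 2 of the 7, Abcc9 and Cspg4, against 27% of all genes. The genotypes did not overlap, with Bapx1 null higher, for the same 2, against 12.2% of all genes, and with Bapx1 null lower for 0, against 6.36%. The median difference of the 7 was 0.41, where that of all genes was 0.07. Without Bapx1 null replicates 2 and 3 these medians were 0.13 and 0.03. As the 7 genes were measured on the arrays that had singled out Kcnj8, these counts are no independent evidence of its direction.

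The direction of several members depended on how the arrays were brought to a common scale. The median difference of all genes was 0.07 with quantile normalization, 0.02 with cyclic loess, -0.45 with no normalization, -0.25 in the processed values of the authors and 1.05 with scaling by median and MAD. Relative to that median, Kcnj8 was higher by 1.19 to 1.42 under these 5 scalings and Abcc9 by 0.50 to 0.66. Pdgfrb and Notch3 were above the median under all 5 and Angpt1 below it. Cspg4, Rgs5 and Mcam were above it under 4 scalings and below it with median and MAD, at -0.52, -0.12 and -0.0029. For Mcam this holds for the probe that represented it. A further kept Mcam probe was below the median with median and MAD (-0.66), no normalization (-0.093), cyclic loess (-0.017) and the processed values (-0.038). The last kept Mcam probe was below it with median and MAD only (-0.44).

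**Figure D3:**
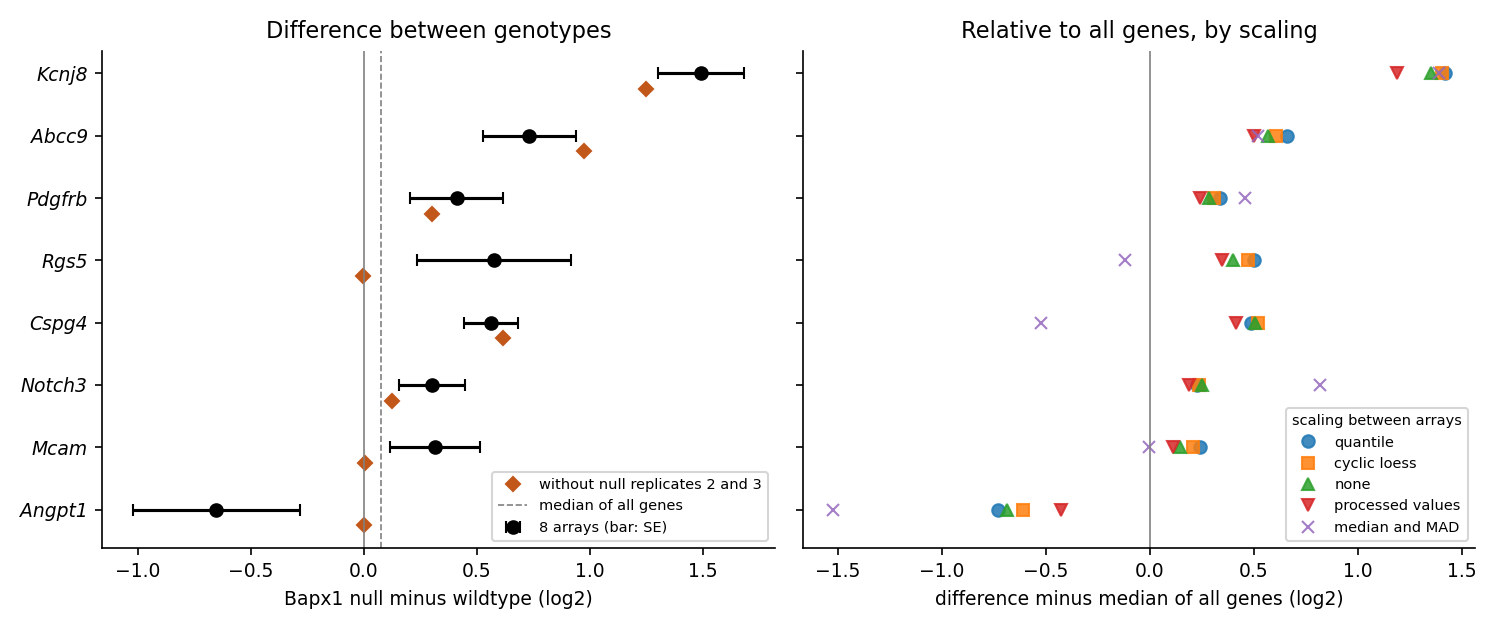
Left, difference between Bapx1 null and wildtype on the log2 scale for each measured gene over 8 arrays (bars SE) and without Bapx1 null replicates 2 and 3. Right, the same difference minus the median of all genes under 5 scalings between arrays. Kcnj8, Abcc9, Pdgfrb and Notch3 stay above 0 on both sides, while Rgs5, Mcam and Angpt1 move to 0.00 without the 2 arrays.

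The genes whose pattern over the 8 arrays was most like that of Kcnj8 were found among 9783 genes by the root mean square difference of log2 values, each gene centred on its own mean. They were Smg6, a factor of nonsense-mediated mRNA decay (0.103), Col6a2, a chain of collagen VI (0.118), Trpm5, a calcium-activated cation channel of taste cells (0.169), Hs3st1, a heparan sulfate sulfotransferase (0.209), and Tacr1, the receptor for substance P (0.213). Values were not scaled, so this measure also counts the size of the difference between genotypes. These 5 genes had differences of 1.12 to 1.63, and a gene with a much smaller difference than Kcnj8 could not rank near it. The ranks of the members therefore do not tell whether their patterns differ from that of Kcnj8 in other respects. No member of the set was near these 5 genes. Cspg4 ranked 862 and Abcc9 949 of 9783, Pdgfrb 1911, Mcam 2179, Notch3 2488 and Rgs5 3222, and Angpt1 was close to the end of the order at 9386. Within Bapx1 null, Kcnj8 was highest on replicate 2, where the first Abcc9 probe was the lowest of its genotype and the second probe the second highest.

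Ligands and partner receptors of the members did not pass the threshold in limma, nor in the plain 2-sample test of the methods, which called 0 genes of any list. At an unadjusted p under 0.05, 0 PDGF, 1 angiopoietin, 2 endothelin and 1 Notch gene differed, where 27% of all genes did. For PDGF signalling 3 of 5 listed genes were measured and 0 changed. The ligand Pdgfc had a difference of -0.34 (adjusted p 0.223 in limma) and the ligand Pdgfa one of 0.10, and Pdgfb, the ligand of PDGFRB, did not pass the detection filter. For the angiopoietin system 3 of 4 were measured, all with lower means, and 0 changed. Ptprb, the endothelial phosphatase that restrains TIE2, had a difference of -0.99 (adjusted p 0.151), Angpt2, the competing ligand, one of -0.85 (adjusted p 0.265), and Tek, which encodes TIE2, one of -0.20 (adjusted p 0.560). Angpt2 turned to 0.10 with scaling by median and MAD. For endothelin 4 of 6 were measured, all with higher means, at 0.38 to 0.53, and 0 changed. These included the receptor Ednrb (0.38, adjusted p 0.175) and the converting enzyme Ece1 (0.43, adjusted p 0.128). The Ednrb value was that of its probe with the highest mean signal. With the mean of its kept probes the Ednrb difference was 0.11 (adjusted p 0.747 in limma). With no normalization all 4 endothelin genes were below 0.

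Among 8 measured of 12 Notch genes 0 changed, and their median difference of 0.11 was close to that of all genes, 0.07. The exception in size was Heyl, a Notch target gene active in vascular smooth muscle. It was 6.50, 6.23, 6.73 and 6.95 on arrays labelled wildtype and 7.76, 8.07, 7.78 and 7.12 on arrays labelled Bapx1 null, without overlap. The difference of 1.08 ± 0.23 (SE) had an adjusted p of 0.0609 in limma. Of 22 alternatives 1 took it past the threshold, the fit without Bapx1 null replicate 4 (0.0250). In that fit 1245 of 9784 genes passed, against 77 in the main fit. Without Bapx1 null replicates 2 and 3 the Heyl difference was 0.84 (adjusted p 0.135 in limma). With the detected percentage of each array as a covariate it was 0.72 (adjusted p 0.376). Hey1, another Notch target, differed by 0.25 and its genotypes overlapped.

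Beyond the 9 genes, 25 other genes associated with mural cells were listed, and 11 of them were measured. None of the 11 passed the threshold in limma, where 0.787% of all genes did. At an unadjusted p under 0.05 there were 6, against 27% of all genes. Higher means were found for 7, against 57.2% of all genes, and lower means for 4. The median difference of the 11 was 0.32. Without Bapx1 null replicates 2 and 3 that median was -0.07. The lowest p values belonged to Heyl, Aoc3, an amine oxidase of smooth muscle (0.65, adjusted p 0.0921), S1pr3, a receptor for sphingosine 1-phosphate (0.71, adjusted p 0.100), and Foxc1, a forkhead factor of mesenchyme and mural cells (adjusted p 0.102). Foxc1 had the largest difference of the list and the opposite direction, with log2 values of 6.93 to 9.52 on arrays labelled wildtype against 5.28 to 7.25 on arrays labelled Bapx1 null, a 3.999-fold lower mean. Of the list 8 genes were not detected on any array, among them Higd1b, Cox4i2, Foxs1 and Steap4, which mark pericytes in several mouse organs. The summed level of the 11 was 5078 to 5713 on arrays labelled wildtype and 4866 to 6507 on arrays labelled Bapx1 null.

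The levels of other cell types on the same arrays were as follows. In the smooth muscle list 15 of 18 measured genes had higher means, against 57.2% of all genes, with a median difference of 0.71. At an unadjusted p under 0.05 there were 11, where 27% of all genes were, and 1 rose in limma (0.531% of all genes). This was Tagln, which encodes transgelin of contractile cells (0.97, adjusted p 0.0317), which lost the call with no normalization (adjusted p 0.289) and in 14 other alternatives. The summed level of the list was 34686 to 49700 on arrays labelled wildtype and 63776 to 75982 on arrays labelled Bapx1 null, without overlap. Kcnj8, Abcc9 and Notch3 are also expressed in smooth muscle, and the part of these cells in the differences of the members was not tested.

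No measured gene of the endothelial list passed the threshold in limma, and 2 were at an unadjusted p under 0.05, where 27% of all genes were. Of 12 measured genes 4 had higher means, against 57.2% of all genes, and the median difference was -0.31. Their summed level was 2030 to 3062 on arrays labelled wildtype and 2114 to 3761 on arrays labelled Bapx1 null, and 5 of the 20 listed genes, Kdr, Tie1, Sox17, Erg and Clec14a, were not detected on any array. The labels name only gut cells, and the paper cites earlier work that places Bapx1-expressing gut cells in the mesenchyme. Genes of gut mesenchyme had a median difference of 0.08 over 11 measured genes. Of these 0 passed the threshold in limma and 3 were at an unadjusted p under 0.05, against 27% of all genes. Their summed levels were 20075 to 23566 on arrays labelled wildtype and 20295 to 25636 on arrays labelled Bapx1 null.

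Blood and liver genes had lower means on arrays labelled Bapx1 null. All 6 measured genes of megakaryocytes and platelets had lower means and 5 fell in limma, where 0.256% of all genes fell. Their summed levels were 1171 to 6336 on arrays labelled wildtype and 268 to 529 on arrays labelled Bapx1 null. Their lowest adjusted p in limma was 0.0524 without Bapx1 null replicates 2 and 3 and 0.0898 with median and MAD. It was 0.141 with the detected percentage of each array as a covariate. With no normalization (0.0133), cyclic loess (0.0238) and the processed values (0.0467) it stayed under 0.05. All 6 differences were negative in each of these settings. Of 8 macrophage and leukocyte genes 2 fell, at 1127 to 1907 and 447 to 1453, and of 7 erythroid genes, 6 of them with lower means, 1 fell, at 1632 to 4162 and 322 to 1358. The lowest adjusted p of these lists in limma was 0.0017 and 0.0044 without Bapx1 null replicates 2 and 3. It was 0.0607 and 0.0514 with that covariate, and 0.0898 for either list with median and MAD. The 6 hepatocyte genes had a median difference of -3.41. In limma 0 of them fell, although 6 were at an unadjusted p under 0.05, against 27% of all genes. Their sums were 474 to 13202 on arrays labelled wildtype and 228 to 487 on arrays labelled Bapx1 null. In limma 0 of 3 measured gut epithelium genes, 0 of 6 mesothelium genes and 0 of 3 enteric neural crest genes changed. At an unadjusted p under 0.05 there were 3, 2 and 1, against the same 27%. The median differences were -0.84, -0.39 and -0.31. The part of these cells in the differences of the mural cell genes was not tested.

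**Figure D4:**
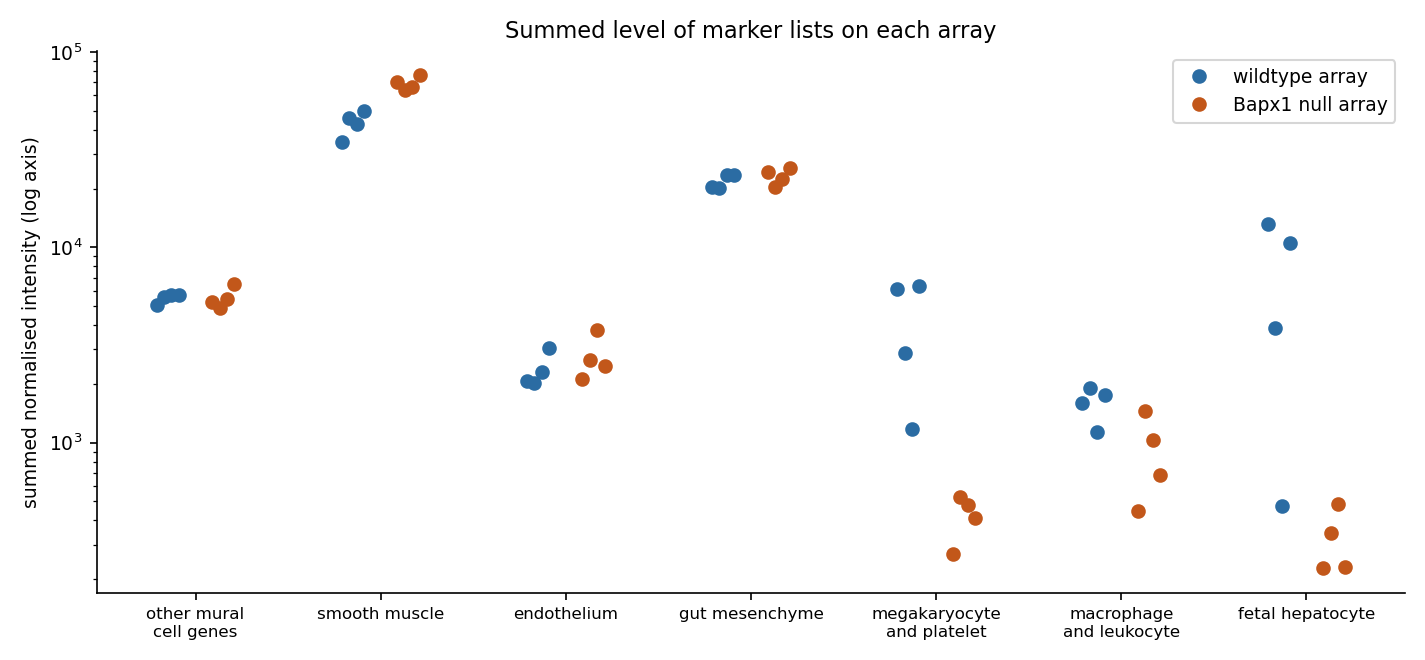
Summed normalised intensity of the measured genes of 7 marker lists on each array (log axis, points are arrays). Smooth muscle sums of the 4 Bapx1 null arrays lie above and platelet sums below those of all wildtype arrays, whereas sums of the other mural cell genes and of endothelium overlap.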

How the data were processed

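EGFP-sorted gut cells of E12.5 embryos (4 wildtype, 4 Bapx1 null) were profiled on single-colour BeadChips. The authors deposited linear intensity per probe, exported with GenomeStudio (version not given in the sources used here), with no background subtraction found in the values (lowest 29.8). The authors also deposited a score near 1 for bright probes, taken as 1 minus the detection p, and processed log2 values. These equalled log2 intensity minus the median of the array and a probe baseline of unknown origin. Their column medians lay between -0.0112 and 0.0145. Both tables (45281 rows) were joined on differences between arrays. The annotation gave 1 symbol to 34885 probes, several to 18 and none to 10378.

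Intensities were corrected with nec of limma 3.58.1 (R 4.3.3; offset 16), quantile normalized and log2 transformed. Probes detected at p under 0.01 on at least 4 of 8 arrays were kept (17440), and the kept probe of highest mean represented a gene (9784). Genotypes were compared with lmFit and eBayes, with Benjamini-Hochberg adjustment over all genes and a threshold of 0.05. Levels were not compared between probes. The number of arrays limits the precision. The scripts were tested on simulated data.

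Members and gene lists were chosen with earlier results of these data known. Named were all members, Bapx1, Kcnj11 and Abcc8, the 5 genes most like Kcnj8, genes of the other lists past the threshold or of lowest p (up to 4), and of the partner lists the 2 genes of lowest p with Tek; other partners are given as ranges and counts, and genes of lists for other cell types mostly as counts. Undetected genes are named as examples.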

Additional observations from a re-analysis of the deposited data

How the results depend on the processing

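Alternatives changed the background correction, the scaling, the filter, the choice of probe, the model and the arrays included, and leaving out Bapx1 null replicates 2 and 3 together was among them. Kcnj8, Abcc9 and Cspg4 had positive differences in every alternative in which they were measured, although the 0.73 of Abcc9 was 0.11 with no normalization and 0.25 with the processed values. The lowest value of Cspg4 was 0.052. This was not particular to members, since Heyl (lowest 0.44), Aoc3 (0.16), S1pr3 (0.077) and Tagln (0.45) were also positive throughout. With scaling by median and MAD a positive sign says little, as 86.2% of all genes were above 0. There Cspg4 (-0.52), Aoc3 (-0.46) and S1pr3 (-0.15) lay below the median of all genes. Kcnj8, Abcc9 and Heyl lay above it (1.39, 0.52 and 0.48). The count of members past the threshold in limma, 0 of 7, was 1 without the detection filter and with array weights, and 0 to 1 when single arrays were left out, always Cspg4. Of all genes 77 passed, and 0 did so with scaling by median and MAD, 45 with no normalization, 8 with the processed values, 49 without the filter, 2 with the plain 2-sample test of the methods, 2 with the detected percentage of each array as a covariate and 202 with array weights. Leaving out single arrays gave 4 to 1245 genes, namely 4, 7, 32 and 4 without wildtype replicates 1 to 4 and 107, 83, 6 and 1245 without Bapx1 null replicates 1 to 4. The cause was not tested.

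The Kcnj8 difference of 1.49 was 2.44 with median and MAD, 0.90 with no normalization and 0.93 with the processed values. Among the members and the partner genes given with values, those that changed sign with no normalization were Pdgfrb (-0.17), Rgs5 (-0.053), Notch3 (-0.20), Mcam (-0.31), Pdgfa (-0.45), Ece1 (-0.025), Ednrb (-0.040) and Hey1 (-0.31). With the processed values these were Pdgfrb (-0.015), Notch3 (-0.065), Mcam (-0.14), Pdgfa (-0.29) and Hey1 (-0.16), and with median and MAD Pdgfc (0.72) and Angpt2 (0.10). With that covariate they were Mcam (-0.12), Angpt1 (0.19) and Hey1 (-0.044), without Bapx1 null replicates 2 and 3 Rgs5 (-0.0034) and Angpt1 (4.98e-05), and without Bapx1 null replicate 4 Pdgfa (-0.018, against up to 0.18 without other single arrays).

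Deviations of same-numbered arrays correlated at 0.15, -0.18, -0.06 and -0.14, and those of differently numbered arrays at -0.23 to 0.22. With 4 arrays per genotype these values cannot tell whether replicate numbers pair the samples, which were treated as unpaired. With the replicate number as a block 51 genes and 0 members passed. A BeadChip block was not run because the column headers give no BeadChip. Signal over background limits Cspg4 and Angpt1, each below detection on Bapx1 null replicate 2.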
